A study of Mus musculus with 6 samples.

Results

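Dbp, Tef, Hlf and Nfil3 encode 4 transcription factors of the basic leucine zipper (bZIP) type that share 1 DNA target, the D-box. They were taken by gene name from a table of 9720 genes measured in sorted mouse cone photoreceptors, and all 4 were in it. The cones came from 2 groups of 3 libraries each. The group called control here had the genotype HRGPcre;Bmal1f/+;Z/EG, and the group called knockout had HRGPcre;Bmal1f/f;Z/EG. Both therefore carried the Cre transgene HRGPcre, driven by a human red/green pigment gene promoter that is active in cones, and the Z/EG reporter, which makes eGFP once Cre has acted. Control cones kept 1 unfloxed Bmal1 copy and so were heterozygous after recombination, not wild type. The mice were of a C57BL/6 strain with mixed background, lived under 12 h of light and 12 h of dark, and have an age given as postnatal day 60 to 80 and also as 2 to 6 months. Retinas were dissociated, eGFP-positive cells were sorted, and 100 ng of RNA per library was sequenced after poly(A) selection. Neither the hour of collection nor the number of animals behind a library is known here. Hour and genotype therefore cannot be told apart, and p-values cover only the spread between these libraries, which may be technical.

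In the circadian clock, BMAL1 and its partner CLOCK switch on genes through the E-box. Among these are the proline and acidic amino acid rich (PAR) bZIP genes Dbp, Tef and Hlf, whose proteins activate transcription at D-boxes. Nfil3, also called E4bp4, encodes a bZIP repressor that competes for the same site and is itself held down by REV-ERB nuclear receptors through the ROR element. D-box genes thus read the balance between 3 activators and 1 repressor, and several of them, such as the period genes, are clock genes in their own right. The comparison of knockout with control asks how the 2 arms stand in sorted cones of the Bmal1f/f genotype. How far BMAL1 was lost in them was not measured here.

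The sequences below are shown because they hold the letters of those elements near starts of the genes concerned. A match of letters alone does not show that a factor binds there. RefSeq promoters (GRCm38.p6, 250 bases before to 50 after an annotated start) were searched on both strands for the D-box (TTATGTAA or TTACGTAA), the E-box (CACGTG), the E-prime box (CACGTT) and the core of the ROR element (TAGGTCA or TGGGTCA). The first motif occurred in 1.06% of 32851 promoters, the E-box in 7.15%, the E-prime box in 4.68% and the ROR core in 6.45%. Both annotated Tef promoters held an E-box, 127 and 138 bases before the start, and the Nfil3 promoter held a ROR core on the opposite strand 12 bases before the start. Per3, a period gene named below, held a pair of D-boxes 205 and 158 bases before its start. The Dbp and Hlf windows held none of these letters, which says nothing of sites elsewhere. Among the clock genes described below, Per1 held an E-box 166 bases before its start, Cry1 an E-box 60 bases and an E-prime box 79 bases before, and Nr1d1 an E-prime box 28 bases before. One of the annotated Rorb promoters held an E-prime box 234 bases before its start, and one of the Arntl promoters a ROR core 30 bases after its start. The other Per1, Rorb and Arntl promoters and those of Nr1d2, Rora and Clock held none of the motifs. Per2 had no promoter in the set searched. Each stretch reads 5′ to 3′ on the gene's strand, with the motif in capitals.
Tef, upstream start, E-box, chr15:81802534-81802563, plus strand: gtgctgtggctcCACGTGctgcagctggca
Tef, downstream start, E-box, chr15:81811264-81811293, plus strand: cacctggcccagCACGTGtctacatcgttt
Nfil3, ROR core, chr13:52981034-52981062, minus strand: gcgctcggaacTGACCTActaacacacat
Per3, far D-box, chr4:151044852-151044881, minus strand: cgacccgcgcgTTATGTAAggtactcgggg
Per3, near D-box, chr4:151044805-151044834, minus strand: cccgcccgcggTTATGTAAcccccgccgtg
The upstream Tef stretch and the Nfil3 stretch overlap an exon in the GENCODE vM21 annotation, whose starts for these genes lie further upstream than RefSeq's. The table gives 1 value per gene, so the Tef promoters cannot be read separately.

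Values are FPKM, fragments counted per transcript length and per library size, so levels of different genes can be compared per length. Column sums ran from 84995 to 128773 FPKM, and such sums say nothing of depth, which no source used here gives. Gm17364, a predicted gene, took 10.03% of the sum in control 3. Control 1 had the lowest correlation with the other libraries across genes (mean r of 0.90 to each group, over genes, which are not independent). All 10 cone markers fixed for the check were in the table, with a summed level of 4108 to 6923 FPKM in control, against 5523 to 6666 FPKM in knockout. All 15 rod markers were present too, at 3086 to 3791 and 2641 to 3723 FPKM. In every library the rod sum was below the cone sum but of the same order. The part of rod RNA in the levels below was not tested. Markers of Müller glia (7 of 10 present) summed to 91.8 to 120.2 and 101.3 to 111.5 FPKM, those of bipolar cells (9 of 10) to 87.1 to 123.6 and 97.7 to 109.9 FPKM, and the microglia gene present of 7 read at most 1.47 FPKM. Of the 5 horizontal cell and 6 pigment epithelium markers 0 were in the table. Of 8627 genes tested with limma on log2(FPKM + 1), 9 passed an adjusted p of 0.05 (Benjamini-Hochberg over all tested genes), which is 0.104%. Of the 4 D-box bZIP genes, 3 were tested and none of these passed; Dbp lay below the minimum mean of 1 FPKM and was not tested. The lowest value of a tested member in any library was 1.01 FPKM, so none of them entered the test through 1 group alone.

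Tef, the thyrotroph embryonic factor gene, was by far the most abundant of the 4. Its gene spans chr15:81802421-81826863 (GRCm38, plus strand, ENSMUSG00000022389.14). Its level was 50.7, 34.1 and 37.5 FPKM in controls 1 to 3 and 16.7, 20.1 and 22.8 FPKM in knockouts 1 to 3. Every knockout library was below every control library, and control 1 stood highest. The means were 40.8 ± 8.78 and 19.9 ± 3.06 FPKM (SD, n = 3 each), 2.05-fold lower in knockout. On the log2(FPKM + 1) scale, which understates changes of low genes, the difference was -0.99 ± 0.24 (SE), with a 95% interval from -1.52 to -0.46. Its unadjusted p in limma was 0.0014, the 40th smallest of the 8627, and its adjusted p of 0.31 missed the threshold. By mean level Tef ranked 348th of the 9720 genes in control and 936th in knockout. A lower level in bulk RNA does not separate fewer cells with the transcript from less RNA per cell.

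Hlf, the hepatic leukemia factor gene, stood an order of magnitude below Tef. Its span is chr11:90336536-90390895 (minus strand, ENSMUSG00000003949.16). It read 3.43, 4.91 and 3.92 FPKM in controls 1 to 3 and 2.38, 2.51 and 3.09 FPKM in knockouts 1 to 3. The groups did not overlap, but the gap between control 1 and knockout 3 was small. Means were 4.09 ± 0.75 and 2.66 ± 0.38 FPKM, 1.54-fold lower in knockout. The log2 difference was -0.47 ± 0.21 (SE), with a 95% interval from -0.94 to -0.0031, and an adjusted p of 0.897 in limma.

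Dbp, the D site albumin promoter binding protein gene, was barely detected. Its position is chr7:45705088-45710203 (plus strand, ENSMUSG00000059824.11). Controls 1 to 3 read 0.103, 1.12 and 0.947 FPKM. Knockouts 1 and 2 were listed at 0.1 FPKM, the lowest value in the table, and knockout 3 read 0.397 FPKM. Control 1 lay among the knockout values, so the groups overlapped. An exact permutation test over the 6 libraries, two-sided on log2(FPKM + 1), gave p = 0.20, where 3 against 3 libraries can reach no less than 0.10. Without a filter on low values, limma gave Dbp an unadjusted p of 0.13 and an adjusted p of 0.93. Every gene in the table has at least 1 library above 1 FPKM, and for Dbp that was control 2 alone. Dbp is thus in the table through a control library, so neither test can decide whether its level differs between the groups. Dbp was the least abundant of the 4 in every library and ranked 9258th of the 9720 genes in control. Its exons overlap those of Sphk2, a sphingosine kinase gene on the opposite strand, by 539 bp. Whether the counting read strand is not stated, so fragments there cannot be assigned with certainty.

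**Figure D1:**
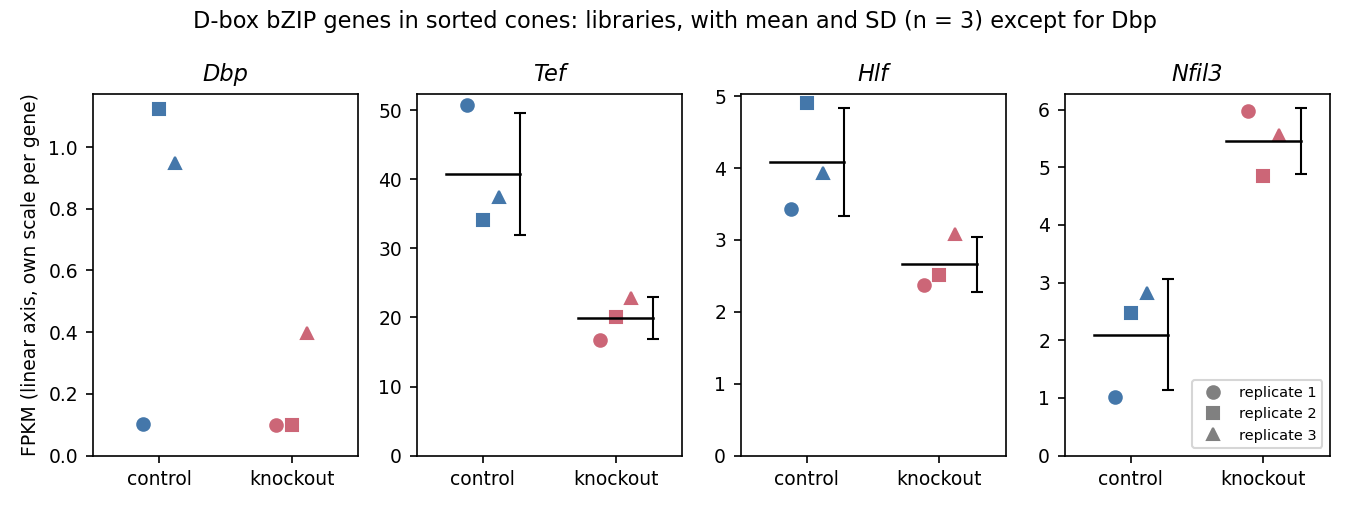
FPKM of each gene (linear axes starting at 0, 1 scale per gene) in the 3 control and 3 knockout libraries. Points are libraries, marked by replicate number, and bars are the mean and SD, drawn for all but Dbp, which has values at the table's lowest level. Tef and Hlf lie lower and Nfil3 higher in every knockout library, while the Dbp groups overlap.

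Nfil3, the repressor gene, went the other way. The gene occupies chr13:52967209-52981073 (minus strand, ENSMUSG00000056749.7). Its level was 1.01, 2.47 and 2.82 FPKM in controls 1 to 3 and 5.97, 4.84 and 5.55 FPKM in knockouts 1 to 3. Every knockout library was above every control library, and control 1 was the lowest. Means were 2.099 ± 0.956 and 5.46 ± 0.57 FPKM, 2.60-fold higher in knockout. The log2 difference was 1.11 ± 0.26 (SE), with a 95% interval from 0.54 to 1.67. Its unadjusted p was 0.0011, the 34th smallest, and its adjusted p of 0.27 missed the threshold in limma.

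Nfil3 and the tested activators thus had groups that did not overlap, with Tef and Hlf lower and Nfil3 higher in knockout. Over all tested genes, 5.87% had non-overlapping groups with knockout lower and 3.52% with knockout higher. An unadjusted p under 0.05 was reached by all 3 tested members and by 5.49% of tested genes. For a single gene with non-overlapping groups the exact permutation test gives p = 0.10, its smallest value. None of the 3 reached an adjusted p of 0.05 in any of the alternatives run. For Tef the adjusted p in limma ranged from 0.13 with array weights to 0.9998 without knockout 2. For Nfil3 it ranged from 0.088 with array weights to 0.9995 without knockout 1.

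Control 1 held the most Tef, the least Nfil3, the least Hlf of its group and almost no Dbp. Without it the log2 difference was -0.83 for Tef, -0.56 for Hlf and 0.82 for Nfil3, so the directions stayed and the differences of Tef and Nfil3 were smaller. Control 1 also had the lowest cone marker sum, 4108 FPKM, against 5523 to 6923 FPKM in the other 5 libraries. Its rod marker sum of 3086 FPKM lay within their range. The ganglion cell marker list summed to 23.9 FPKM in control 1 and to at most 2.99 FPKM in the other 5 libraries, with 3 of its 9 genes in the table. Some marker levels also moved with the groups. The 2 amacrine markers present of 8 (Slc6a9 and Pax6) summed to 8.98 to 11.2 FPKM in control, against 5.01 to 8.15 FPKM in knockout. The 1 vascular marker present of 5 (Pecam1) read 0.593 to 0.812 and 1.23 to 1.30 FPKM, and the 1 red blood cell marker present of 5 (Alas2) read 1.48 to 2.93 and 3.06 to 5.29 FPKM. Each gene in the table has at least 1 library above 1 FPKM, which Pecam1 reached in knockout alone. Pecam1 is thus present only through the group where it is higher, and its difference cannot count as a shift of a marker. The defining amacrine genes Gad1, Gad2 and Tfap2a and the vascular gene Cldn5 had no value in the table used here. The part of these cells in the results was not tested.

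The order of the 4 genes differed between the groups. In each control library it was Tef, Hlf, Nfil3, Dbp, and in each knockout library Tef, Nfil3, Hlf, Dbp. In control the lowest Hlf value (3.43 FPKM) was above the highest Nfil3 value (2.82 FPKM), and in knockout the highest Hlf value (3.09 FPKM) was below the lowest Nfil3 value (4.84 FPKM). Across control libraries the ranges of Nfil3 and Dbp overlapped, since Nfil3 in control 1 (1.01 FPKM) lay below Dbp in control 2 (1.12 FPKM). The other neighbours in the order were apart within each group. Tef made up 85.0% to 93.5% of the summed activator level in control and 86.8% to 88.5% in knockout. That sum was 45.6 ± 7.59 FPKM in control, against 22.7 ± 3.55 FPKM in knockout.

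The balance between activator and repressor genes was read in each library as a ratio of FPKM. There was 49.97, 13.8 and 13.3 times as much Tef as Nfil3 in controls 1 to 3, and 2.80, 4.15 and 4.11 times as much in knockouts 1 to 3. Control 1 again lay far above the other controls. For Hlf over Nfil3 the ratios were 3.38, 1.99 and 1.39 in control and 0.398, 0.519 and 0.556 in knockout, so that they stood above 1 in all controls and below 1 in all knockouts. On the log2 scale, the mean Tef to Nfil3 ratio was 4.39 ± 1.09 in control and 1.86 ± 0.32 in knockout, a difference of -2.53. For Hlf it was 1.08 ± 0.64 and -1.04 ± 0.25, a difference of -2.12. These ratios restate the levels above and carry no test.

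**Figure D2:**
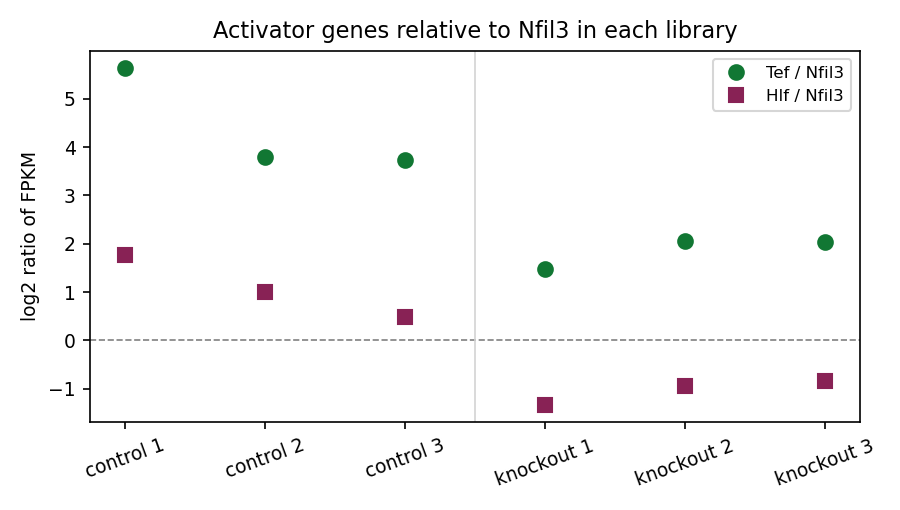
Log2 ratio of FPKM of Tef to Nfil3 (circles) and of Hlf to Nfil3 (squares) in each of the 6 libraries, with the dashed line at equal levels. Tef ratios lie from 3.73 to 5.64 in control and from 1.49 to 2.05 in knockout, and Hlf ratios lie above 0 in control and below 0 in knockout.

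The 4 genes were then placed among the bZIP genes as a whole. Of 53 bZIP genes listed, 31 were in the table and 27 were tested. Tef had the highest mean of the 31 in control and rank 4 in knockout, where Atf4 (35.5 ± 5.69 FPKM), Crebzf and Nrl were above it. In control its range overlapped that of Atf4, a stress-response factor gene at 23.0, 39.7 and 39.7 FPKM. Nfil3 was 24th of 31 in control and 14th in knockout, Hlf was 16th and 24th, and Dbp was last in both. By unadjusted p, Nfil3 and Tef were the first and second of the 27 tested, and Hlf ranked 4th. None of the other families had a gene past the threshold, against 0.104% of all genes. The median log2 difference was 0.087 over 12 ATF and CREB genes, -0.040 over 8 MAF, NFE2 and BACH genes, -0.35 over 2 C/EBP genes and 0.016 over 2 AP-1 genes, beside -0.016 over all tested genes.

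Nfe2l3, an NFE2-like factor gene, measured 1.92 ± 0.34 and 3.17 ± 0.37 FPKM and did not overlap (adjusted p = 0.895, limma). Ddit3, the C/EBP homologous protein gene, measured 10.2 ± 4.30 and 6.50 ± 0.34 FPKM, and Xbp1, a factor of the unfolded protein response, 10.01 ± 1.09 and 7.40 ± 3.06 FPKM (adjusted p = 0.92 for both, limma). Cebpg read 3.44 ± 1.57 and 2.71 ± 0.23 FPKM, Creb3 3.38 ± 1.60 and 4.53 ± 0.86 FPKM and Mafg, a small MAF gene, 3.11 ± 0.39 and 2.27 ± 0.60 FPKM. Nrl, the rod-determining bZIP gene, was at 21.6 ± 6.58 and 27.7 ± 6.28 FPKM. The AP-1 genes Jun and Jund measured 3.92 ± 0.93 and 3.48 ± 1.18 FPKM and 2.68 ± 0.90 and 3.15 ± 0.65 FPKM.

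**Figure D3:**
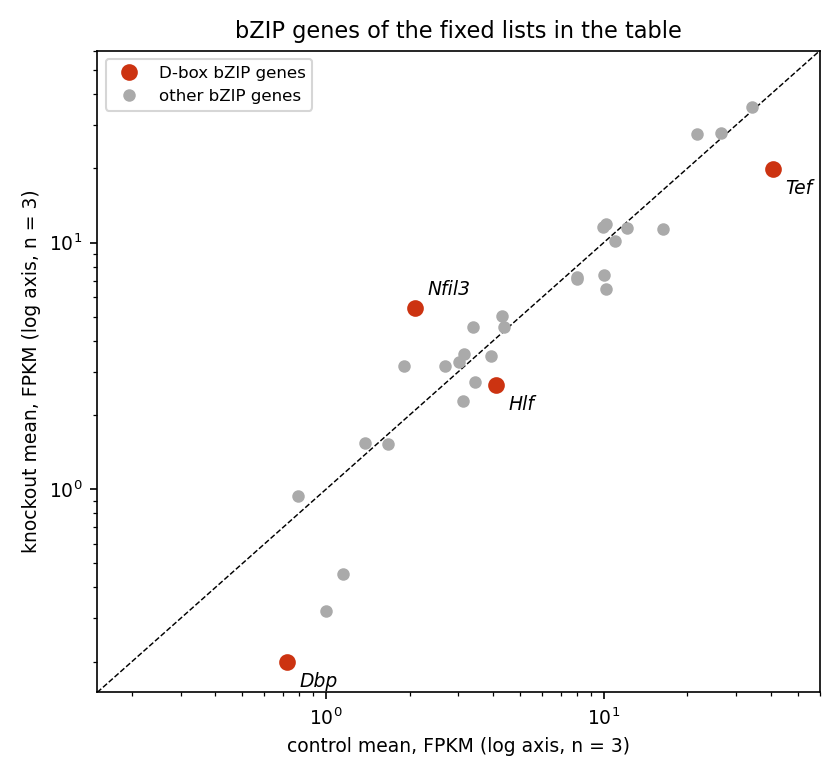
Mean FPKM in knockout against mean FPKM in control (both axes logarithmic, n = 3 each) for the 31 bZIP genes present, with the D-box binding genes in red and the dashed line at equal levels. Tef, Hlf and Dbp lie below the line and Nfil3 above it. The Dbp groups overlap, with values at the table's lowest level.

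Clock genes known to carry D-boxes were all 8 in the table and tested. Of these, 3 fell, 1 rose and 4 did not pass, with a median log2 difference of -0.27. Over all tested genes 0.104% passed in either direction and the median was -0.016. Several of them also carry E-boxes or ROR elements, so the list is not one of D-box input alone. In the promoter windows searched, Per3 was the only one to hold a D-box. Per3, whose promoter D-boxes are printed above, read 11.3, 7.15 and 11.9 FPKM in controls 1 to 3 and 0.635, 0.324 and 0.717 FPKM in knockouts 1 to 3. Every knockout library was far below every control library (log2 change -2.81 ± 0.24, adjusted p = 0.00023, limma). Nr1d1, the REV-ERB alpha gene, read 38.3, 47.1 and 56.3 FPKM in control, against 2.87, 4.62 and 4.91 FPKM in knockout (log2 change -3.24 ± 0.25, adjusted p = 0.00013, limma). Nr1d2, the REV-ERB beta gene, read 8.38, 6.73 and 9.40 FPKM in control, against 0.822, 0.882 and 0.877 FPKM in knockout (log2 change -2.29 ± 0.21, adjusted p = 0.00030, limma). These are the genes of the repressors of Nfil3 named in the background. Whether their lower levels have a part in the higher level of Nfil3 was not tested.

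Cry1, a cryptochrome gene with both D-box and ROR input, read 4.56, 6.95 and 6.59 FPKM in control, against 18.7, 14.9 and 20.5 FPKM in knockout (log2 change 1.44 ± 0.23, adjusted p = 0.042, limma). That call ended when any one library other than control 1 was left out, namely control 2 or 3 or knockout 1, 2 or 3 (adjusted p from 0.083 to 0.21, limma), and with a pseudocount of 0.1 FPKM (adjusted p = 0.056). The other 4 genes did not pass. Per1 measured 3.85 ± 0.55 and 2.76 ± 1.02 FPKM and Per2, its paralog, 1.92 ± 0.99 and 1.55 ± 0.26 FPKM. Rora and Rorb, whose receptors activate through the ROR element, measured 23.8 ± 4.40 and 30.6 ± 1.31 FPKM and 10.2 ± 2.34 and 11.5 ± 1.64 FPKM. The ranges of Rora did not overlap.

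Of 6 genes listed as driven through the ROR element, 4 were tested, including Nfil3 and Cry1. All 4 had a positive difference, as did 4089 of the 8627 tested genes, and Cry1 alone passed (0.104% of all tested genes). Their median was 0.63, against -0.016 over all tested genes. Arntl, which encodes BMAL1, read 2.9998, 2.60 and 3.27 FPKM in control, against 3.37, 2.28 and 3.48 FPKM in knockout (log2 difference 0.022, and below 0 without control 2, knockout 1 or knockout 3). Its value covers the whole gene, so it does not test the deletion. Clock measured 5.46 ± 1.22 and 6.14 ± 0.49 FPKM. The list of clock genes driven through the E-box, which holds several of the genes above, had 12 tested members, of which 1 rose, 3 fell and 8 did not pass (0.104% of all tested genes passed). Its median was -0.39, beside the same -0.016 over all tested genes.

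Enzyme and receptor genes known from liver, kidney or brain to depend on PAR bZIP factors were mostly without a value here, with 3 of 7 in the table. Pdxk, which encodes pyridoxal kinase of vitamin B6 metabolism, read 1.18, 1.99 and 2.64 FPKM in control, against 1.05, 1.28 and 1.52 FPKM in knockout. Por, the electron donor of microsomal cytochrome P450 enzymes, read 12.8, 11.1 and 8.25 FPKM and 8.35, 12.7 and 6.52 FPKM. Alas1, the first enzyme of heme synthesis, read 0.329, 2.19 and 2.91 FPKM and 1.76, 1.51 and 2.47 FPKM. The groups overlapped for all 3, and their log2 differences were -0.34 (95% interval -0.86 to 0.18) for Pdxk, -0.23 (-0.80 to 0.35) for Por and 0.18 (-0.58 to 0.93) for Alas1. These intervals leave room for differences of the size seen for Hlf.

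**Figure D4:**
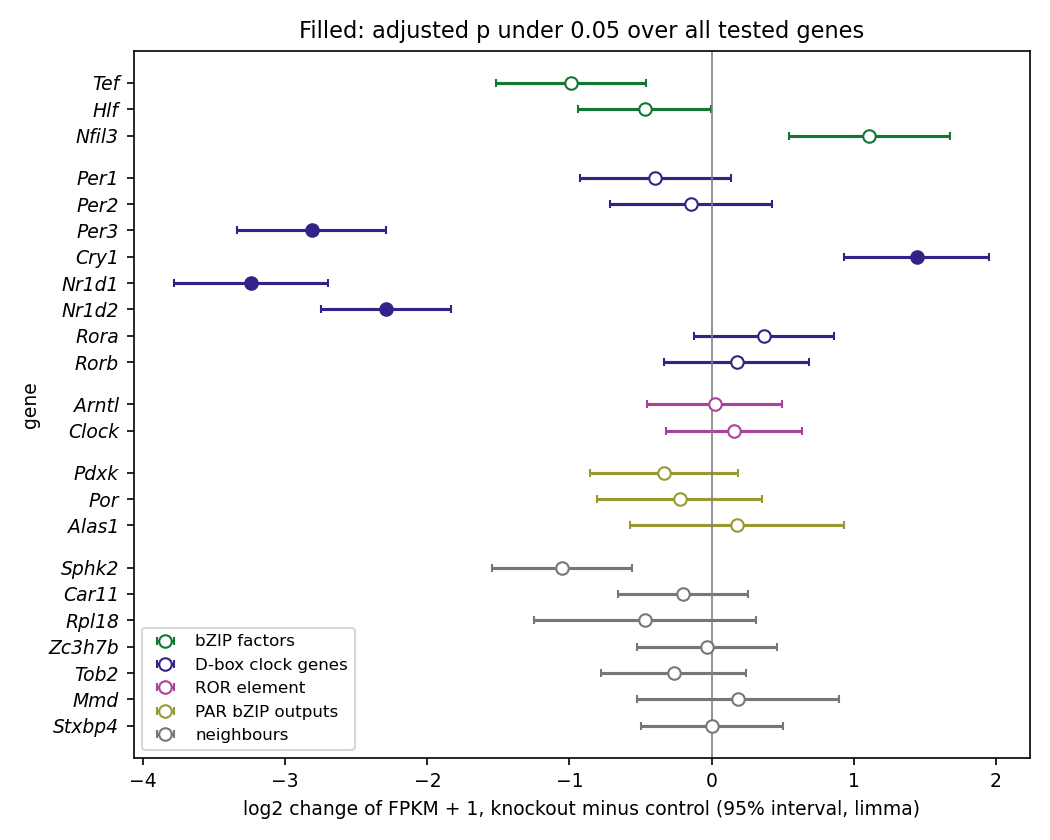
Log2 change of FPKM + 1, knockout minus control, with its 95% interval from limma, for the tested D-box bZIP genes, clock genes with D-box or ROR input, known PAR bZIP outputs and genome neighbours. Filled points passed an adjusted p of 0.05 over all tested genes, and these are Per3, Cry1, Nr1d1 and Nr1d2; Tef, Hlf and Nfil3 are open, with intervals on 1 side of 0.

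Genes with the most similar profile were sought by the root mean square difference over the 6 libraries between log2(FPKM + 1) values centred on each gene's mean. For Tef they were Tmem205 (0.068), Camsap3 (0.098), which encodes a protein of microtubule minus ends, and Wbp1 (0.13), where the median over all other tested genes was 0.60. Tmem205 read 4.18, 2.61 and 2.49 FPKM in control, against 0.812, 1.15 and 1.25 FPKM in knockout, with control 1 highest and knockout 1 lowest, as for Tef. For Hlf they were Pfdn2 (0.065), a prefoldin subunit gene, Mrps31 (0.070), a mitochondrial ribosomal protein gene, and Klc1 (0.072), a kinesin light chain gene, against a median of 0.36. For Nfil3 they were Fabp7 (0.098), a fatty acid binding protein gene, Opn1sw (0.17), the short-wavelength cone opsin gene, and Acadvl (0.17), an enzyme gene of fatty acid oxidation, against a median of 0.64. Fabp7 read 21.9, 33.1 and 37.0 FPKM in control, against 77.2, 63.8 and 76.2 FPKM in knockout, the same order of libraries within control as Nfil3. None of these genes passed the threshold, and a likeness over 6 libraries that share 2 groups is a description.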

How the data were processed

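The authors deposited FPKM values in 1 table of 6 libraries. Build mm10, DESeq2, HTSeq, Cufflinks 2.2.1 and TopHat2 2.1.0 are listed in the submitters' processing notes, without roles; annotation and use of strand are not stated. No value lies under 0.1 FPKM, and every gene has at least 1 library above 1 FPKM. Groups come from genotype labels, and 15 date-damaged symbols were restored by gene ID.

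The 8627 of 9720 genes whose mean reached 1 FPKM were compared as log2(FPKM + 1) with limma 3.58.1 in R 4.3.3 (eBayes with trend, two-sided), without rescaling, and p-values were adjusted by Benjamini-Hochberg over all of them. The fit was run on simulated data, with a recovery required only for shifts larger than those of the members. That check does not show that differences of the members' size would be called. Depth is unknown, so precision is read from the spread between libraries. Python 3.11.15, pandas 2.3.3, scipy 1.17.1 and matplotlib 3.10.9 were used for the rest. Positions are from GENCODE vM21 and promoters from RefSeq, matched by symbol. A promoter was found for 77.4% of tested genes, under the 80% needed, so the check of changes by promoter motif is void. Coding transcripts of different members share runs of at most 18 bases.

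Named genes were the 4 members, tested clock genes with D-box or ROR input, PAR bZIP outputs, the 2 of smallest p and the most abundant of each other list, the 3 most similar profiles per member, and genome neighbours. The members, the 10 gene lists and the 11 marker lists were chosen with earlier results of these data known. Alternatives covered pseudocount, filter, scaling, variance model, array weights, replicate block and each library left out.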

Additional observations from a re-analysis of the deposited data

How the results depend on the processing

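Tef, Hlf and Nfil3 kept their direction and missed the threshold in every alternative in which they were tested (16 for Tef, 15 each for Hlf and Nfil3, whose means fall below 5 FPKM). Leaving out 1 library gave log2 differences from -1.11 to -0.83 for Tef, from -0.56 to -0.36 for Hlf and from 0.82 to 1.28 for Nfil3. For Dbp, which lay below the minimum of the main fit, they ran from -0.77 to -0.30, and a pseudocount of 0.1 FPKM gave -1.24 in place of -0.48. The log2 ratio of Hlf to Nfil3 differed by -1.58 instead of -2.12 on the log2(FPKM + 1) scale. Array weights raised the number of genes passing from 9 to 23, and leaving out 1 library gave 6 to 13. With the replicate block 6 genes passed, and of the genes named Cry1 alone lost its call (adjusted p = 0.23, limma). Same-numbered libraries did not deviate together (correlations -0.118, -0.085 and -0.034), 0 of 6 libraries correlated best with its own number, and the labels give the numbers no meaning. The sign flipped with array weights for Per2 (0.12), Alas1 (-0.11), Cebpg (0.078), Atf4 (-0.12) and Mmd (-0.11), and with quantile normalization for Zc3h7b (0.035). Leaving out 1 library gave values on both sides of 0 for 10 genes that did not pass: Per2 (-0.40 to 0.098), Arntl (-0.059 to 0.17), Alas1 (-0.29 to 0.49), Cebpg (-0.45 to 0.062), Atf4 (-0.17 to 0.21), Jun (-0.33 to 0.066), Gsk3b (-0.048 to 0.27), Zc3h7b (-0.16 to 0.12), Mmd (-0.25 to 0.43) and Stxbp4 (-0.15 to 0.12). The cause was not tested. Fabp7 passed after rescaling to equal sums and, like Sphk2, with array weights. Counting 250 bases before the start alone, 0.931% of promoters held a D-box, 6.02% an E-box, 3.85% an E-prime box and 5.38% a ROR core.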

Other observations

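Genes beside the 4 factors in the genome were read for comparison. Sphk2, which overlaps Dbp on the opposite strand, read 4.05, 6.05 and 5.26 FPKM in controls 1 to 3 and 1.97, 1.498 and 2.37 FPKM in knockouts 1 to 3. The groups did not overlap, the means were 5.12 ± 1.01 and 1.94 ± 0.44 FPKM, and the log2 difference of -1.05 ± 0.23 missed the threshold (adjusted p = 0.21, limma; 0.016 with array weights). Car11, a carbonic anhydrase-related gene 405 bp upstream of Dbp, measured 2.15 ± 0.34 and 1.74 ± 0.26 FPKM, and Rpl18, a ribosomal protein gene 5253 bp downstream, 15.7 ± 7.16 and 10.8 ± 4.55 FPKM. The groups overlapped for both.

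Tef's nearest coding genes were Zc3h7b at 6160 bp and Tob2 at 21408 bp, with 2.59 ± 0.73 and 2.48 ± 0.41 FPKM and with 20.4 ± 2.69 and 16.9 ± 3.72 FPKM in control and knockout. Hlf lies between Mmd and Stxbp4, at 11.3 ± 5.32 and 11.96 ± 1.68 FPKM and at 5.80 ± 1.25 and 5.79 ± 0.97 FPKM. All 4 had overlapping groups. Auh and Ror2, the nearest coding genes of Nfil3, had no value here. Tef's exons overlap those of Gm17597, an antisense gene without a value here, by 193 bp. Fragments there cannot be assigned with certainty either, since the use of strand is not stated. Of 7 tested genes for kinases and ligases that act on clock proteins, none passed, with a median log2 difference of -0.012. The casein kinase genes Csnk1e and Csnk1d measured 11.7 ± 2.34 and 9.32 ± 1.25 FPKM and 9.39 ± 3.34 and 7.07 ± 1.02 FPKM, and Gsk3b 22.8 ± 5.10 and 24.7 ± 2.88 FPKM.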
